A study of Drosophila melanogaster with 2 samples.

Results

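The histone genes of Drosophila melanogaster were examined in chromatin immunoprecipitation sequencing (ChIP-seq) of dmrt93B, which carries the DM domain also found in Doublesex. They were chosen by symbol, as the 115 protein-coding genes of the Ensembl release 115 annotation whose name begins with His1, His2, His3 or His4, out of 13945 protein-coding genes on the 6 arms 2L, 2R, 3L, 3R, 4 and X. Of these, 111 are copies in the repeated cluster on arm 2L, here called the array, and 4 lie elsewhere: His2Av, His3.3A, His3.3B and His4r. The values taken for each gene were the peak summits within 500 bp of any of its transcription start sites (TSSs); the genes and this window were proposed with results of these data already known, so all counts below are descriptions and carry no test.

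Both samples belong to 1 group, whole wandering larvae of the last instar, males and females pooled, from a transgenic line with GFP fused to the C terminus of dmrt93B. The group had 2 biological replicates, and no untagged or other control group was analysed here. Which promoter drives the transgene, and in which cells, is not given in the sources used here. The sample descriptions call both libraries input controls, against their antibody label, assay name and separately named control, so the values are those of libraries labelled as dmrt93B ChIP. The files hold a relaxed list of 30000 peaks for each replicate, another 30000 for the replicates pooled, and an optimal list of 4159 peaks past a threshold on the irreproducible discovery rate. Read depth is unknown. Peak signal is the authors' own measure of peak strength and was compared only within a list, where rank 1 is the strongest peak.

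Histones package DNA into nucleosomes, made of pairs of H2A, H2B, H3 and H4, with the linker histone H1 between them. In Drosophila the array genes are replication-dependent: they are transcribed in S phase from an organelle called the histone locus body, and their mRNAs end in a stem-loop in place of a poly(A) tail. The genes elsewhere encode replacement histones made through the cell cycle from polyadenylated mRNAs. His2Av encodes the fly's H2A.Z and H2A.X in one protein, His3.3A and His3.3B both encode H3.3, and His4r encodes an H4.

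The array ran from position 21416953 to 21541681 of 2L (dm6), 125 kb or 0.530% of the arm. It held 23 coding copies of His1, 23 of His2B, 23 of His3, 22 of His4 and 20 of His2A, with a median of 5045 bp between the start sites of neighbouring His1 copies. This spacing ran from 4843 to 14041 bp. The counts are those of the assembly, whose sequence has 100 undetermined bases within the array. The copies of a family share promoter sequence to different degrees. Within 250 bp before and 50 bp after the start site, the 23 His1 copies had 6 distinct sequences, the 20 His2A copies 5, the 23 His2B copies 6, the 23 His3 copies 8 and the 22 His4 copies 8. The most common sequence was shared by 8 copies each for His1, His2A and His2B, by 6 for His3 and by 5 for His4. Between annotated gene ends, the spacer of His4 and His3 ran from 25 to 188 bp and that of His2B and His2A from 128 to 145 bp. Annotated His4 genes ran from 412 to 528 bp, and spacers of 25 bp lie at copies with a long annotation, such as His4:CG33875.

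The commonest form of each array promoter is printed here because it shows what a read from the array would have to be placed by. His4 and His3 are transcribed away from each other, and so are His2B and His2A, so their promoters are the spacers between the paired start sites. The His4-His3 spacer is that from His4:CG33899 to His3:CG33818 (chr2L:21459266-21459446, 5 of 22 copies), the His2B-His2A spacer that from His2B:CG17949 to His2A:CG31618 (chr2L:21423609-21423736, 8 of 20 copies), and the His1 sequence the 250 bp before the start of His1:CG33837 (chr2L:21491291-21491540, 8 of 23 copies). All are on the plus strand. Capitals mark matches on either strand to the 7 motifs searched: TATCGATA, the DRE site of the factor Dref; TATAAA, the TATA box; the repeat GAGAG; the box CCAAT; the DM-domain sites named ACAATGT and also TGTATCA; and the homeodomain site TAATTA. Matches may overlap.
His4-His3 spacer: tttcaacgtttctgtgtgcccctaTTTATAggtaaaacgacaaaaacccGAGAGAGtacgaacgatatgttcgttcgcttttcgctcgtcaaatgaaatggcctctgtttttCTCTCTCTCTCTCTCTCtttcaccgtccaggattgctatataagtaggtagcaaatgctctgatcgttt
His2B-His2A spacer: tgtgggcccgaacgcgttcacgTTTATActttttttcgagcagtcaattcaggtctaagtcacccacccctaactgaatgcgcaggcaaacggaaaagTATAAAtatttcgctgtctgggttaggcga
His1 upstream: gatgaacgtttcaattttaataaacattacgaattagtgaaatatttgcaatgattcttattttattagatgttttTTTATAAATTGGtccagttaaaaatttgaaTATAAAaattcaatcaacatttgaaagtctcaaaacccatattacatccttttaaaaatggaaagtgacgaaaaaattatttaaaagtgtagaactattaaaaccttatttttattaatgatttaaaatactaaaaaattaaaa

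The array spacers differed in composition. The promoter of 300 bp at His1 had a median GC content of 22.3%, against 44.3% at His2A, 44.7% at His2B, 40.0% at His3, 41.0% at His4 and 38.0% over all protein-coding promoters. TATAAA was found in all 23 His1, all 20 His2A and all 23 His2B promoters, in 22 of 23 His3 and in 17 of 22 His4 promoters, and in 45.8% of all promoters of this length. GAGAG, the repeat bound by GAGA factor and CLAMP, was in all 23 His3 and all 22 His4 promoters and in none of the other array promoters, against 29.7% of all promoters. Matches were counted on either strand, and the His4-His3 spacer, at most 188 bp, is shorter than these promoters. A match in it can thus count for both genes. In the spacer printed above, the only TATAAA match is on the strand of His4. Neither DM-domain site was found in the 300 bp searched at the 5′ end of each of the 115 histone genes. ACAATGT was in 4.62% and TGTATCA in 2.90% of all promoters. The DRE site, in 9.36% of all promoters, was likewise found in none of the 115. The inner start sites of His3.3B, 1056 and 1657 bp from its 5′ end, lay outside the searched stretch. Because array copies of a family share promoter sequence, the 115 stand for far fewer independent promoters. Their motif counts were not tested against the shares of all promoters.

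No peak lay in the array. None of the 111 copies had a summit within 500 bp of a TSS in the optimal list, and the same count of 0 was obtained in the pooled list, in the list of replicate 1 and in that of replicate 2. A count of 0 of 111 allows a share of up to 2.70% by the limit of 3 counts, with an exact 95% binomial upper bound of 3.27%. Both cover counting error only, and the copies are not independent because they share sequence. Both also take it that a peak could have been called at each copy, which is not known for repeated sequence. They are thus no limit on the share of copies bound by dmrt93B. Over all protein-coding genes the share with such a summit was 13.1% in the optimal list, 30.4% in the pooled list, 24.3% in replicate 1 and 46.4% in replicate 2. No peak interval overlapped the array in any of the 4 lists, also between the genes.

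**Figure D1:**
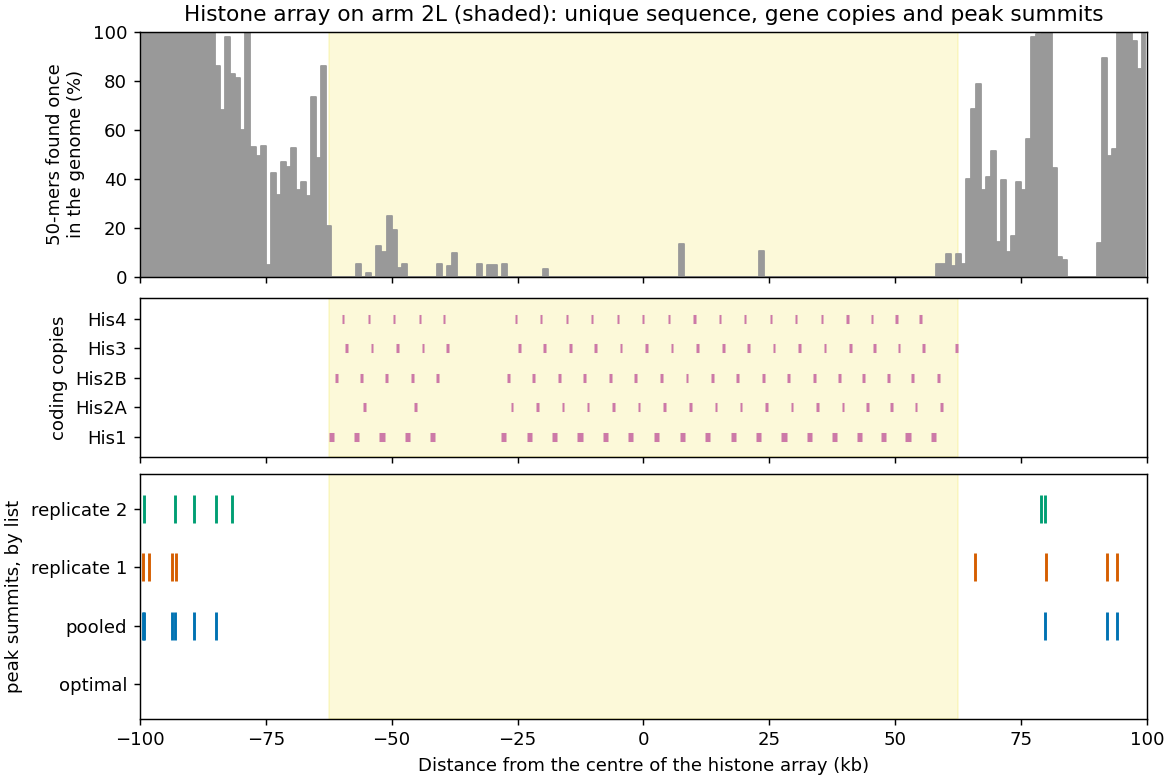
Share of 50-base sequences found once in the genome (top, percent in bins of 1 kb), coding copies of each histone family (middle) and peak summits of the 4 lists (bottom) against distance from the centre of the histone array in kb, with the array shaded. No summit of any list falls in the shaded 125 kb, where nearly all bins are at or close to 0 percent.

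The rest of the arm shows how many summits a stretch of this length held. When 2L was divided into 186 other windows of the array's length, the median window held 29.0 pooled summits, 31.5 of replicate 1, 27.0 of replicate 2 and 3 of the optimal list. Empty windows were 1 of 186 in the pooled list, 1 in replicate 1, 4 in replicate 2 and 32 in the optimal list. The stretch free of summits around the array was 158738 bp in replicate 1, the longest on the arm in that list. It was 164567 bp in the pooled list and 160510 bp in replicate 2, the third and the fourth longest. In the optimal list it was 310033 bp, at rank 6 of 748 stretches between neighbouring summits on the arm, although empty windows of the array's length were more frequent in that list.

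Summits appeared again at some distance from the array. The closest coding genes on either side, nrv3 at 23634 bp and Lamp1 at 31708 bp, each had a promoter summit in the pooled list and in replicate 1. In replicate 2 only nrv3 had one. Neither had one in the optimal list, whose nearest summits were 102895 bp before and 82411 bp beyond the array. The closest summit of any list to the array was 3497 bp beyond its last copy, in replicate 1, with a signal of 18.6 at rank 29695 of 30000.

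Almost none of the array sequence is unique. Of the 50-base sequences starting within 500 bp of a TSS, 1.16% over all array copies occurred once in the assembly, counting both strands, and 98 of 111 copies had none. At His2Av, His3.3A, His3.3B and His4r the share rounded to 100% at each gene. Across the whole array the share was 1.44%, against 88.6% over the 6 arms. Neither the read length nor the treatment of reads that map to several places is given in the sources used here, and their part in the empty array was not tested.

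Other genes with repeated promoters had no summits either. Besides 105 array copies, 113 protein-coding genes had fewer than 10% unique 50-base sequences at their TSSs, and 0 of these 113 had a summit in each of the 4 lists. Of 77 genes outside the array with 10 to 50% unique sequence, 1 had an optimal, 4 a pooled, 2 a replicate 1 and 6 a replicate 2 summit. Of the 234 genes with 50 to 90%, 15 had an optimal summit (6.41%), and of the 13410 genes with 90% or more, 1805 did (13.5%). The array copies thus shared their empty promoters with the other genes of low unique sequence, and whether dmrt93B is present at the array cannot be read from these lists.

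**Figure D2:**
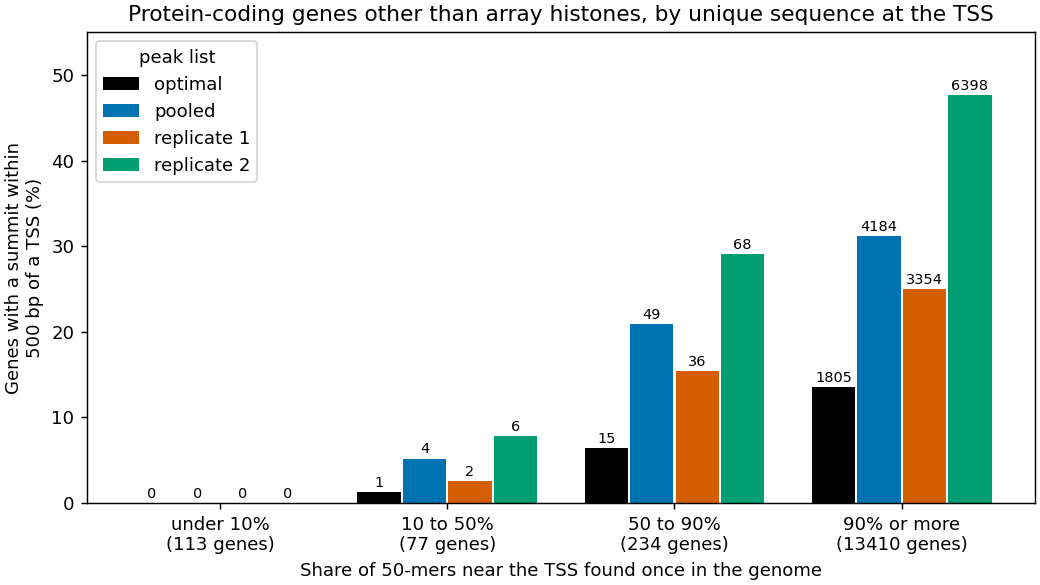
Percentage of protein-coding genes outside the array with a summit within 500 bp of a TSS (vertical axis), by the share of 50-base sequences near the TSS that occur once in the genome (horizontal axis), with 1 bar for each peak list and the number of genes above it. The 113 genes under 10% have 0 in every list, and the share of genes with a summit is highest, in each list, in the class of 90% or more.

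Unique sequence was not wholly absent from the array. The copies with the most were His2B:CG33908 (24.6%), His4:CG33907 and His3:CG33806 (18.9% each), His1:CG33801 (14.3%), His1:CG33834 (13.4%) and His1:CG33804 (12.6%). None of these 6 copies had a summit in any list.

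The genes outside the array did have summits, in 1 replicate. A summit within 500 bp of a TSS was found at 2 of the 4 genes in the optimal list, His2Av and His3.3B, against 13.1% of all genes (95% exact binomial interval of 2 of 4, 6.76 to 93.2%, counting error only). The same 2 genes had one in the pooled list (30.4% of all genes). Replicate 2 had a summit at all 4 (46.4% of all genes), and replicate 1 at 0 of 4 (24.3% of all genes). In the 4159 strongest peaks of each replicate the counts were 0 in replicate 1, where 10.1% of all genes had one, and 2 in replicate 2, where 17.1% did. With 4 genes, the exact interval of even 4 of 4 runs from 39.8 to 100%, so these counts are too few to be read against the shares of all genes.

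**Figure D3:**
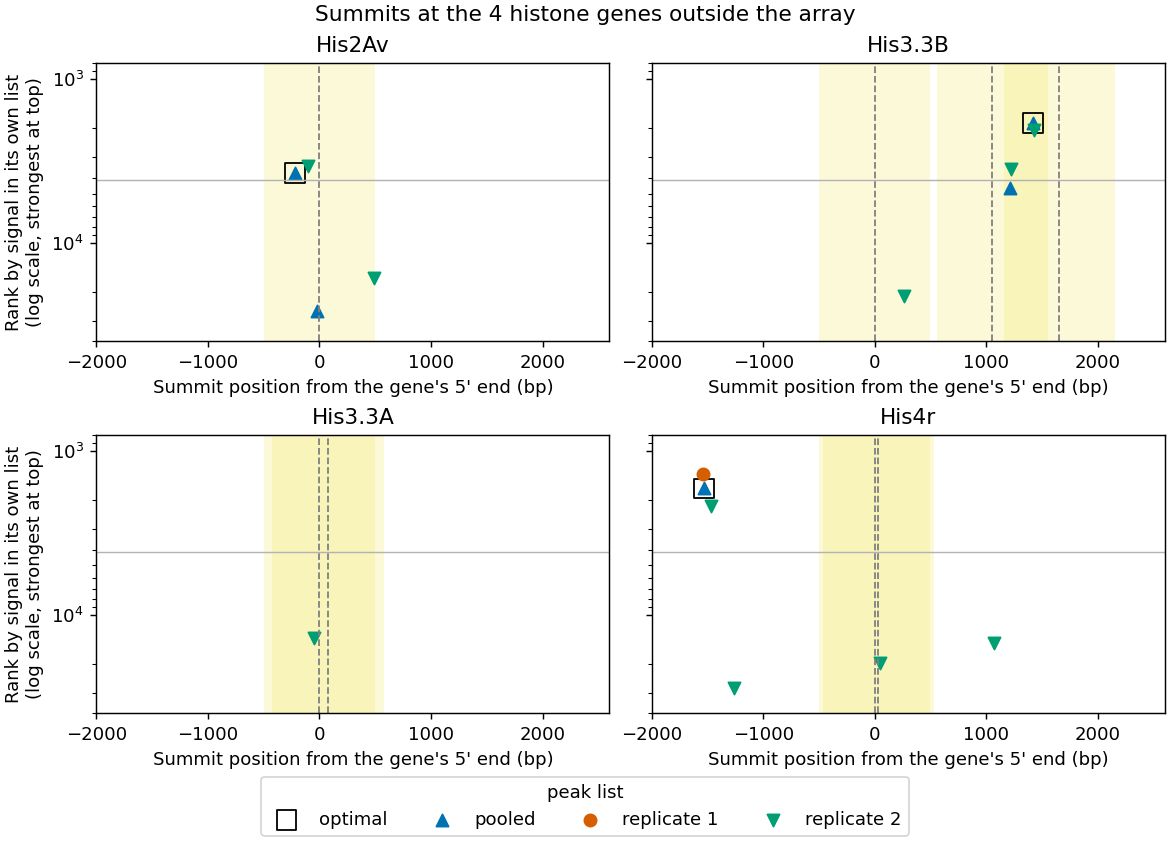
Peak summits near the 4 histone genes outside the array: position from the gene's 5′ end in bp, along the direction of transcription (horizontal axis), against rank by signal within the summit's own list (vertical log axis, strongest at the top). Dashed lines are start sites, shading marks 500 bp on either side, and the grey line is rank 4159; replicate 1 has no summit in the shaded areas and 1 point in all, upstream of His4r.

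His3.3B, on the X chromosome (FBgn0004828, 9152523 to 9156669, minus strand), had the strongest promoter peak among the histone genes. Its optimal summit was at X position 9155247 (peak 9155035 to 9155458), with a signal of 237 at rank 1862 of 4159. The gene has 3 start sites, and this summit was not at the first of them: it lay in an intron of the longer transcripts, 235 bp upstream of the innermost start site and 366 bp downstream of the middle one. In replicate 2 a summit lay 3 bp away, at 9155244, with a signal of 105 at rank 2046. The nearest summit of replicate 1 was 33772 bp from any His3.3B start site.

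A second summit stood beside it, at position 9155455 in a UTR of the gene, 158 bp downstream of the middle start site. It had a pooled signal of 102 at rank 4634, just outside the optimal list, whose weakest peak had a signal of 113. Replicate 2 had this summit at 9155449, 6 bp away, with a signal of 69.7 at rank 3523. Replicate 2 alone also had a weak summit, with a signal of 17.5 at rank 21065, 267 bp downstream of the first start site. The summits of the pooled list and of replicate 2 coincided within a few bases here, while replicate 1 held no entry. The pooled list includes replicate 2, so this match is not one between independent lists.

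His2Av (FBgn0001197, 3R 26866929 to 26869220, plus strand) had the other optimal summit, at 3R position 26866708 (peak 26866496 to 26866919), 221 bp upstream of its only start site. The signal was 125 at rank 3762 of 4159, near the lower end of the list. The position is shared with ball, which encodes a kinase of histone H2A and is transcribed the opposite way: the summit lay in an intron of ball, between its 2 start sites, 99 bp downstream of one and 83 bp upstream of the other. The peak is thus closer to the start sites of ball than to that of His2Av, and the lists do not assign it to either gene.

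At His2Av the position varied between lists. In replicate 2 the summit was at 26866825, in the spacer between ball and His2Av, 104 bp upstream of His2Av and 18 bp upstream of ball, with a signal of 72 at rank 3392. It was 117 bp from the optimal summit. The pooled list had a second, weak entry at 26866908, 21 bp upstream of His2Av, with a signal of 28.2 at rank 26011, and replicate 2 one at 26867422 in an exon, with a signal of 21.1 at rank 16436. That last summit was 493 bp from the start site, just inside the window. The nearest summit of replicate 1 was 7426 bp away.

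His3.3A (FBgn0014857, 2L 5055058 to 5056149, plus strand) had a summit in replicate 2 only. The summit, at 5055009 in a UTR of CG14036 (peak 5054794 to 5055223), was 49 bp before the first start site, with a signal of 23.9 at rank 13940 of 30000. The start site of CG14036, on the minus strand, was 7 bp from it. The nearest optimal summit was 2286 bp upstream, with a signal of 244, and the nearest of replicate 1 was 15834 bp away. The 2 genes for H3.3 therefore differed in strength: His3.3B had an optimal summit and His3.3A only a weak one. At both genes, replicate 2 was the only replicate with a promoter summit, at rank 2046 for His3.3B and 13940 for His3.3A. The difference was not tested.

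His4r (FBgn0013981, 3R 14625755 to 14626614, plus strand) also had a promoter summit in replicate 2 only, at 3R position 14625804 in a UTR, 49 and 16 bp downstream of its 2 start sites. The signal was 18.3 at rank 19776. The start site of put, which encodes a type II receptor for activin and BMP ligands, also lay within 500 bp of this summit, on the other strand. A much stronger peak lay outside the window, in an intron of put 1531 bp upstream of His4r. It had a signal of 257 at rank 1694 in the optimal list with a signal of 156 at rank 1385 in replicate 1 and rank 2179 in replicate 2. Within 2000 bp of the start sites of the 4 genes, this was the only peak with a summit in both replicates.

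Absence from replicate 1 was a feature of other genes too. Of the 1821 protein-coding genes with an optimal promoter summit, 469 (25.8%) had no summit within 500 bp of a TSS in replicate 1, and 9 (0.494%) had none in replicate 2. His2Av and His3.3B belonged to the 469. No spread between replicates can be given for their peaks.

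The sequences at the optimal summits are printed because they can be compared with the rest of the list, and those between paired start sites because the weaker summits lie in or beside them; the latter stop at annotated UTRs. The His3.3B window is chrX:9155197-9155297 on the minus strand and the His2Av window chr3R:26866658-26866758 on the plus strand. The spacers are chr3R:26866808-26866928 (ball to His2Av), chr2L:5055017-5055057 (CG14036 to His3.3A) and chr3R:14625704-14625754 (put to His4r), all on the plus strand. Capitals mark the same motifs as above.
His3.3B summit: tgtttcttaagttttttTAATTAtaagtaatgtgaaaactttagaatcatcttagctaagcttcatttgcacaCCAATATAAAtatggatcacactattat
His2Av summit: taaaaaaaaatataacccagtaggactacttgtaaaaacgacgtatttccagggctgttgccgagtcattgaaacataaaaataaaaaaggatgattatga
ball-His2Av spacer: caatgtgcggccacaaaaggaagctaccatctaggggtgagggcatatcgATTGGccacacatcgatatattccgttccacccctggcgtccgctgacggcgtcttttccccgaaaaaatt
CG14036-His3.3A spacer: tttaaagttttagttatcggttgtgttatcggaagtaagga
put-His4r spacer: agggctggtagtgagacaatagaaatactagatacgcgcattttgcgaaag

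The printed His3.3B window had a GC content of 24.8%, below the lower quartile over windows of that length in the optimal list (26.7%), and held 1 match each to the homeodomain site, the CCAAT box and the TATA box, the last 2 overlapping. The His2Av window had 31.7%, equal to the list's median of 31.7%, and none of the 7 motifs. Both placements depended on the length of the window. In the wider window tried as an alternative, His3.3B had 30.8%, above the lower quartile of 30.3%, and His2Av had 41.8%, above the upper quartile of 38.8%. Around the summit of replicate 2 at His2Av the GC content was 53.5%, so the value there depended on which list placed the summit. The summit of replicate 2 at His3.3A had 33.7% and that at His4r 36.6%.

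Genes that make, place and process histones were examined next to the histone genes themselves. Of 45 symbols listed, 44 matched the annotation, NASP as Nasp, and Dlp was left out. A summit within 500 bp of a TSS was found at 6 of these 44 genes in the optimal list (13.1% of all genes), at 11 in the pooled list (30.4%), at 8 in replicate 1 (24.3%) and at 30 in replicate 2 (46.4%). The optimal count was 2 of 17 assembly chaperones, 1 of 10 genes for the exchange of H2A.Z, 1 of 11 for the histone locus body and its regulation, and 2 of 4 for the 3′ ends of histone mRNAs. The variant genes cid, for the centromeric H3, and BigH1, for the early embryonic H1, had no summit in any list. The shares of all genes are given for comparison, and the lists were not tested against them.

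**Figure D4:**
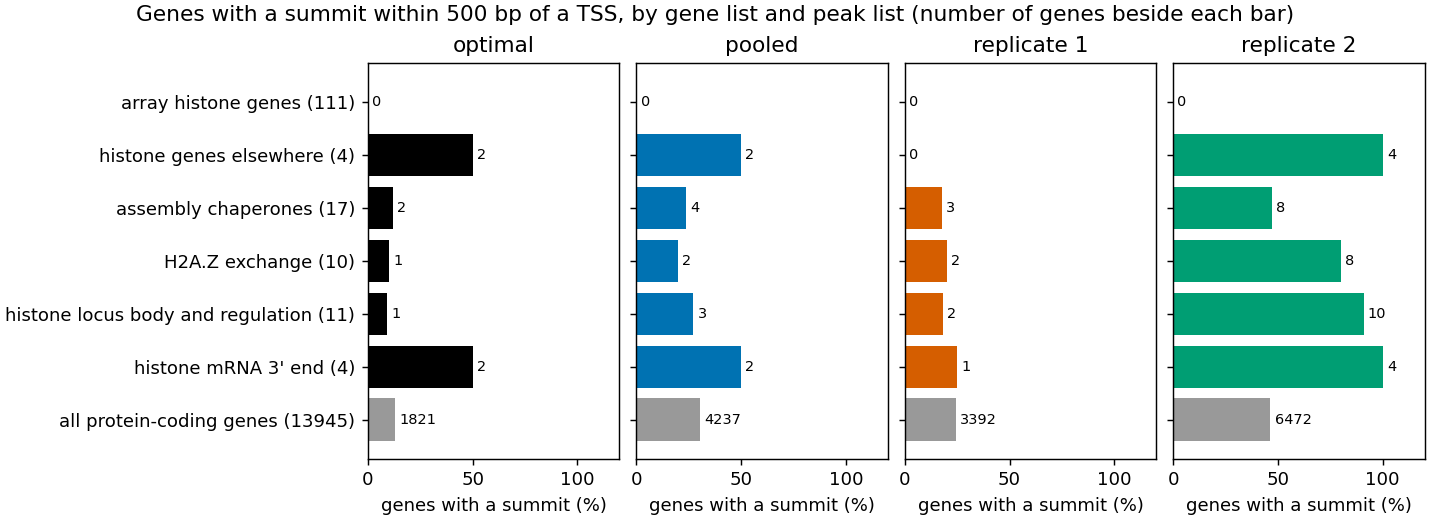
Percentage of genes with a summit within 500 bp of a TSS (horizontal axis) for the histone genes, 4 of the related gene lists and all protein-coding genes (rows, number of genes in brackets), in each of the 4 peak lists (panels). The array is at 0 in every panel, and the histone genes elsewhere go from 0 of 4 in replicate 1 to 4 of 4 in replicate 2.

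The strongest of these was pont, which encodes an ATPase of the complex that exchanges H2A.Z. Its summit lay 119 bp upstream of a TSS, with a signal of 630 at rank 380 of the optimal list, and ranked 341 in replicate 1 and 457 in replicate 2. At mxc, which encodes the scaffold protein of the histone locus body, the summit was 198 bp upstream, with a signal of 248 at rank 1756, and at ranks 1659 and 2071 in the replicates. Both genes were thus found at similar ranks in both replicates, unlike His2Av and His3.3B.

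Cpsf100, which encodes a subunit of the complex that cleaves mRNA 3′ ends, had 2 optimal summits, with signals of 433 and 289 at ranks 803 and 1455. It ranked 539 at best in replicate 1 and 1298 in replicate 2. CstF64, another 3′ end factor, had a signal of 393 at rank 931, with no promoter summit in replicate 1 and rank 792 in replicate 2.

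Among the chaperones, yem, which encodes a partner of the H3.3 chaperone Hira, had a signal of 283 at rank 1496, again with no promoter summit in replicate 1 and rank 2021 in replicate 2. dre4, for the Spt16 subunit of the FACT complex, had a signal of 121 at rank 3887, with rank 3029 in replicate 1 and 4188 in replicate 2. Of the 6 genes with an optimal summit, 4 were also found in replicate 1.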

How the data were processed

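ChIP-seq peak lists of 2 samples in 1 group were used. Per the labels, coordinates are on dm6; no aligner, peak caller, read length or threshold is given in the sources used here. For each peak the authors deposited a signal (a strength on the scale of its list), a −log10 q value, not used for ranking, and a summit, taken here as 1-based. The deposited files give no depth.

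Genes came from Ensembl release 115, sequences from the NCBI Release 6 assembly, in the same coordinates. A gene had a promoter summit when one lay within 500 bp of any TSS. For each k-mer (k of 50) the number of places in the assembly was counted on both strands. Promoters ran from 250 bp before to 50 bp after the gene's 5′ end; motifs were searched on both strands. Binomial intervals (exact, 95%) and the limit of 3 counts cover counting error only. No test was run, and shares are given beside those of all genes. The genes and lists were chosen with earlier results of these data known; genes were named by rule (all histone genes elsewhere, the 4 strongest of each list, genes sharing a summit). The 6 array copies with the most unique sequence and the flanking genes nrv3 and Lamp1, and the variants cid and BigH1 were named after their values were seen. The code was tested on planted summits and repeats. Python 3.11.15, numpy 2.4.6, pandas 2.3.3 and matplotlib 3.10.9 were used.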

Additional observations from a re-analysis of the deposited data

How the results depend on the processing

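The count of 0 of 111 array copies was the same in the optimal and in the pooled list with TSS windows of 250 and 1000 bp, with only the gene's 5′ end, with peak intervals in place of summits and in each replicate, and for the optimal list also in its stronger part. The closest summit of any list lay 3497 bp beyond the array. None of these settings could thus have changed the count, and its constancy adds no support. The counts of histone genes elsewhere moved. With only the gene's 5′ end, 1 of 4 was left in both the optimal and the pooled list, because the summits of His3.3B lie at its inner start sites. The stronger part of the optimal list (2079 peaks) left 1. Leaving out 1 replicate, with the strongest 4159 peaks of the other for the optimal and its whole list for the pooled count, gave 0 to 2 in place of the optimal count of 2 and 0 to 4 in place of the pooled count of 2, with 0 each time replicate 1 stood alone. The 6 related genes became 4 to 10 in the strongest peaks of a single replicate, 4 in replicate 1 and 10 in replicate 2. The unique share at array promoters was 0.930% with a k of 36, 1.54% with 75 and 1.39% with a window of 250 bp, against 1.16%. The mean GC content of the 2 optimal summits was 28.2% over the printed windows and 36.3% over windows that took in a wider stretch on either side. No paired analysis was possible because there was 1 group. With depth unknown, a missing peak does not show missing binding, and the lists hold no values between peaks.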
